A study of Mus musculus with 288 samples.

Results

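Genes for minor gut peptides were followed in single cells of the mouse upper small intestine, namely Ucn3, Uts2b, Tac1, Sst, Iapp, Insl5 and Guca2b. They are 7 of the 46078 mouse genes in the count table, and they were chosen by name. Each was looked up in every cell with at least 20000 reads on mouse genes and at most 20% of these on mitochondrial genes, which kept 250 of 288 cells. Of the 7, only Ucn3, Uts2b, Tac1 and Guca2b had enough reads to pass the filter on low counts and be tested.

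The cells came from 3 male GLU-Venus mice of the C57BL6 background aged 20 to 21 weeks, in which a glucagon promoter drives a yellow fluorescent protein, so that proglucagon-expressing (PPG-) cells can be sorted. No treatment was given, and every cell carries the same label, L-cells. The labels give 3 sequencing pools of 96 cells each, SLX-11175, SLX-11179 and SLX-9703, and these were taken as the replicates and assumed to be 1 mouse each, since no label names the mouse. Both mice sequenced at low depth also gave non-fluorescent control cells, and no label states which cells these were, so that sort gate and cell type cannot be told apart here.

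Enteroendocrine cells are scattered through the gut lining and release peptide hormones when food arrives. Each peptide is cut from a longer precursor by prohormone convertases, which act at pairs of basic residues, and many peptides are then amidated at a glycine left at their end. The major hormones of the upper gut are the proglucagon products (Gcg), GIP (Gip), cholecystokinin (Cck) and neurotensin (Nts), and a single cell may express several of them beside less abundant peptides such as the ones followed here.

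The peptides that the main results turn on can be read directly in the coding sequence. The stretches below come from the GENCODE M21 transcripts on mm10, 5′ to 3′ on the coding strand. They are shown because they are the parts of the measured transcripts that encode the released peptide, and capitals mark the codons at which the precursor is cut or amidated. For Ucn3 the capitals are a glycine and 3 lysine codons after the 38 residues of the peptide, for Uts2b they are the lysine and arginine codons just before its 8 residues, and for Tac1 they are a glycine and a basic pair after the 11 residues of substance P and the 10 of neurokinin A.
Ucn3, urocortin 3: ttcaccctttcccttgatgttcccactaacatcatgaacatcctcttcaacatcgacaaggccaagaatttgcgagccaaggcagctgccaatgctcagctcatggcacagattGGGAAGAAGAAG
Uts2b, urotensin II-related peptide: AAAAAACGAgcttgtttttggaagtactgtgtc
Tac1, substance P: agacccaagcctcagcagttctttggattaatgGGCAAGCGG
Tac1, neurokinin A: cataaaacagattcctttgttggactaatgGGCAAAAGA

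The Ucn3 stretch lies in the last of 2 exons at chr13:3941159-3941284 on the minus strand, within a precursor of 164 residues. The Uts2b stretch is joined across exons 4 and 5 of 5, between positions chr16:27353715-27360948 on the minus strand, in a precursor of 113 residues. Both Tac1 stretches are on the plus strand, substance P in exon 3 of 7 at chr6:7556732-7556773 and neurokinin A in exon 6 of 7 at chr6:7559101-7559139, in a precursor of 130 residues. Reads were counted per gene, so a Tac1 count does not say which of these peptides its transcript encodes.

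The full genes on mm10 are Ucn3 (ENSMUSG00000044988, chr13:3940688-3945349), Uts2b (ENSMUSG00000056423, chr16:27353322-27370239), Tac1 (ENSMUSG00000061762, chr6:7554879-7565834) and Guca2b (ENSMUSG00000032978, chr4:119656607-119658954). The others are Sst (ENSMUSG00000004366, chr16:23889573-23890958), Iapp (ENSMUSG00000041681, chr6:142298423-142303961) and Insl5 (ENSMUSG00000066090, chr4:103017872-103026842). Iapp overlaps Slco1a5 on the other strand, and with a library that keeps no strand its reads cannot be told apart from those of that gene.

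Depth differed between the pools. The median cell had 52571 reads on mouse genes in pool SLX-11175, 70726 in pool SLX-11179 and 1975710 in pool SLX-9703, with 75, 87 and 88 cells kept. A share of cells with a read is therefore given as sequenced and, for comparison between pools, as the share expected had every cell been drawn down to 20000 reads. Levels are CPM values, the read count of a gene normalised to all reads on mouse genes, taken over the summed reads of the cells in a group. Reads carried no molecular identifiers, so that binomial intervals (Clopper-Pearson, 95%) cover counting error only. For a count of 0 the limit is set at 3 cells of the total, which bounds the cells with a read and not those that express the gene.

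Each cell was assigned to the highest of Gcg, Gip, Cck and Nts if this reached 10000 CPM. Cck was the main hormone of 123 cells (49.2%), Gcg of 28 (11.2%), Gip of 26 (10.4%) and Nts of 16 (6.4%), and 57 cells (22.8%) were hormone-poor. The classes are not exclusive types, since 74 of the 193 cells with a main hormone had 2 or more of the 4 hormones at 10000 CPM. Summed over 7 enteroendocrine genes, the level was 1966 to 32216 CPM in the hormone classes and 58.2, 409 and 981 CPM in the hormone-poor cells of SLX-11175, SLX-11179 and SLX-9703. The hormone-poor sums therefore went against the label, although single cells among them had up to 6820 CPM of Gcg. In both shallow pools 8 immune genes summed to 259454 and 208354 CPM in hormone-poor cells, against 1335 CPM in SLX-9703 and at most 251 CPM in any hormone class. In the shallow pools, the 25 kept cells numbered 81 or above in the labels were all hormone-poor, while the 137 with lower numbers held 119 cells with a main hormone and 18 hormone-poor ones. This boundary was set after seeing the data, and the labels do not say what the numbers stand for. The hormone-poor cells are not part of the contrasts between hormone classes, although they share the fit. The share of them with a read was 8.77% for Ucn3 and 5.26% for Uts2b at a median depth of 61410 reads, against 111514 reads in Cck-main cells, and at equal depth it was 2.38% and 0.680%. All of these carriers were in SLX-9703, where the cell with most Ucn3 had 7589 CPM of Cck and 6820 CPM of Gcg and so lay just under the limit for a main hormone.

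Ucn3, Guca2b and Uts2b were the most abundant of the 7 genes. Per kilobase of exon, the level over all cells was 19.1 ± 16.2 CPM for Ucn3 (SD, n = 3 pools), 16.1 ± 17.1 for Guca2b, 9.16 ± 2.95 for Uts2b and 1.41 ± 0.546 for Tac1. Insl5 at 0.348 ± 0.329, Iapp at 0.253 ± 0.221 and Sst at 0 CPM per kilobase followed. The order of Ucn3, Guca2b and Uts2b was not the same in every pool. Ucn3 was above Guca2b in all 3 (12.7 against 7.58, 7.12 against 4.89 and 37.6 against 35.8 CPM per kilobase), by less than the spread between pools, and Uts2b was above Guca2b in both shallow pools (12.6 and 7.22). Without SLX-9703 the Guca2b mean was 6.24, the Ucn3 mean 9.91 and the Uts2b mean 9.89 CPM per kilobase. Per kilobase, Tac1 lay below Uts2b and above Insl5 in non-overlapping ranges, and Insl5 and Iapp overlapped. The gap between Tac1 and Uts2b depended on the exon length, which is 3399 bases for Tac1 and 835 for Uts2b. In CPM their ranges overlapped, at 2.71 to 6.27 for Tac1 and 6.03 to 10.5 for Uts2b.

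Reads of Ucn3 were found in 79 of 250 cells (31.6%, interval 25.9 to 37.8%), of Guca2b in 57 (22.8%, 17.7 to 28.5%), of Uts2b in 26 (10.4%, 6.91 to 14.9%) and of Tac1 in 15 (6%, 3.40 to 9.70%). At 20000 reads per cell the expected shares were 17.4%, 9.77%, 5.48% and 2.73%, and without SLX-9703 the shares as sequenced were 17.9%, 7.41%, 7.41% and 4.32%. The intervals take cells of pools of unlike depth together and do not cover the spread between pools. In SLX-11175, SLX-11179 and SLX-9703 the shares were 20%, 16.1% and 56.8% for Ucn3 and 8%, 6.90% and 51.1% for Guca2b, all outside the interval. They were 6.67%, 8.05% and 15.9% for Uts2b and 4%, 4.60% and 9.09% for Tac1. Insl5 had a read in 9 cells (3.6%), Iapp in 4 (1.6%) and Sst in none, and at 20000 reads the expected shares of Insl5 and Iapp were 0.539% and 0.466%. Per cell, 117 cells (46.8%) carried no read of any of the 7 genes, 86 carried 1 of them, 37 carried 2 and 10 carried 3. In SLX-9703 36 cells carried 1 of the genes and 40 carried more, whereas in both shallow pools most carriers had a read of 1 gene only.

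These reads sat in few cells. One cell held 17.4% of all Ucn3 reads, 43.2% of Uts2b reads, 45.8% of Tac1 reads and 46.7% of Guca2b reads. The 3 highest cells together held 43.7%, 64.7%, 89.6% and 61.6%. A level summed over a class therefore rests on a handful of cells for each of these genes, least so for Ucn3.

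**Figure D1:**
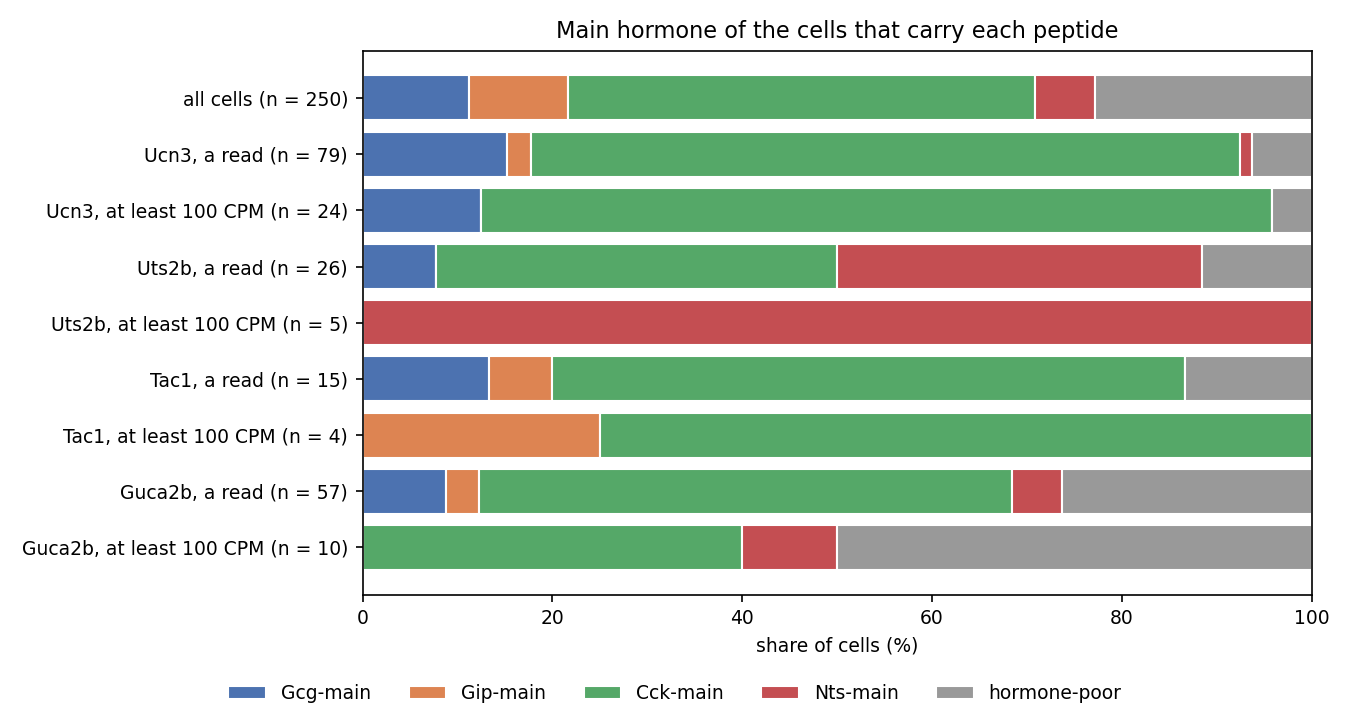
Main hormone of all 250 cells and of the cells that carry each peptide, as a share of cells in percent, for carriers with at least 1 read and for those at 100 CPM or more. Cck-main cells made up 74.7% of Ucn3 carriers against 49.2% of all cells, and all 5 cells at 100 CPM of Uts2b were Nts-main.

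Ucn3 encodes urocortin 3, a peptide of the corticotropin-releasing factor family that acts on the receptor Crhr2 and is best known from pancreatic islets. It was carried mainly by cells whose main hormone was Cck or Gcg. The summed level in Cck-main cells was 45.9, 24 and 72 CPM in SLX-11175, SLX-11179 and SLX-9703 (47.3 ± 24.1, SD, n = 3). Gcg-main cells had 45.4, 4.85 and 47.4 CPM (32.6 ± 24). The ranges of the classes overlapped, with a Cck-main to Gcg-main ratio of 1.01, 4.94 and 1.52 in the 3 pools.

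Outside these classes Ucn3 was rare. Gip-main and Nts-main cells had no Ucn3 read in either shallow pool, and 2 reads and 1 read in SLX-9703. Hormone-poor cells had no read in 21 and 22 cells of the shallow pools and 7.81 CPM in SLX-9703, where 1 cell held 112 of the 125 reads and the level without it was 0.840 CPM. Against the limit that 3 reads would give, the Cck-main level was at least 8.64-fold and 4.46-fold higher than the Gip-main level in SLX-11175 and SLX-11179, and at least 38.7-fold and 21.1-fold higher than the hormone-poor level. In SLX-9703 it was 9.22-fold higher than in hormone-poor cells.

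Of the Ucn3 carriers, 59 were Cck-main (74.7%, against 49.2% of all cells), 12 Gcg-main (15.2% against 11.2%), 5 hormone-poor (6.33% against 22.8%), 2 Gip-main (2.53% against 10.4%) and 1 Nts-main (1.27% against 6.4%). Of the 79 carriers 16 had a single read, 14 of them in SLX-9703. Both Gip-main carriers and the Nts-main carrier were such cells. Restricting carriers to the 24 cells at 100 CPM or more gave 20 Cck-main cells, 3 Gcg-main cells and 1 hormone-poor cell. Both ways of counting had most carriers in Cck-main cells, and at 100 CPM no Gip-main or Nts-main cell was left.

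As sequenced, 38.7%, 31.7% and 66.7% of Cck-main cells had a Ucn3 read in SLX-11175, SLX-11179 and SLX-9703, and 42.9%, 10% and 72.7% of Gcg-main cells. At 20000 reads per cell the expected shares were 32.5%, 23.2% and 31.6% for Cck-main and 30.2%, 7.54% and 31.8% for Gcg-main. Drawn to equal depth, the deep pool lay within the range of the shallow ones for Cck-main cells and above both for Gcg-main cells. The level varied widely among carriers of SLX-9703, where it ran from 0.229 to 1499 CPM with a median of 9.35.

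Cck-main cells were compared with the mean of the other hormone classes with the quasi-likelihood test of edgeR, adjusted after Benjamini-Hochberg, on reads summed per pool and class, with pool as a term. In this comparison 0.127% of 12568 genes were called at an adjusted p under 0.05, and of the 4 peptide genes tested Ucn3 was called. Its fitted log2 fold change was 7.27 (SE 1.29, adjusted p = 0.0423 by edgeR), a size that depends on the prior count because Gip-main and Nts-main sums were at 0 in both shallow pools. The call was lost without any 1 of the pools (adjusted p = 0.503 without SLX-11175, 0.497 without SLX-11179, 0.399 without SLX-9703, all by edgeR) and without the highest cell (0.0535), and the direction remained positive in all 12 alternatives. By edgeR it was also lost without the pool term (0.0917), at a mitochondrial limit of 10% (0.0703) and at a higher depth minimum (0.0745). DESeq2, with 46 of 12568 genes called, called Ucn3 (adjusted p = 0.00207), and limma on the mean per cell did not (0.0635). Since only pools replicate the classes, these p-values measure the spread between 3 pools.

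For Gcg-main cells 0.0955% of 12568 genes were called by edgeR and none of the 4 peptide genes, with 1 of them, Ucn3, at an unadjusted p under 0.05. Its log2 fold change there was 5.87 (SE 1.40, adjusted p = 0.228, edgeR's quasi-likelihood test). DESeq2 called Ucn3 higher in Gcg-main cells (152 of 12568 genes called), and limma on the mean per cell called Uts2b lower there (304 called).

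Carriers of Ucn3 had higher medians of several hormone genes than other cells with a main hormone. Their median Gcg level was 32722 CPM against 778 CPM in SLX-11175, 3325 against 324 in SLX-11179 and 1826 against 291 in SLX-9703. Cck was also higher in each pool, at 153560 against 61274, 183826 against 72777 and 144694 against 86639 CPM. Chga, a granule protein of endocrine cells, showed the same order at 785 against 262, 607 against 255 and 850 against 176 CPM. Ghrl, which encodes ghrelin, did so in SLX-11179 (1925 against 461 CPM) and SLX-9703 (3580 against 315), but not in SLX-11175 (372 against 408). These medians are over 15, 14 and 45 carriers and 39, 51 and 29 other cells, and they were not tested. Across all cells, log2(CPM + 1) of Ucn3 correlated with Cck at 0.409, 0.378 and 0.314, and with Gpr119, a lipid-sensing receptor of enteroendocrine cells, at 0.243, 0.259 and 0.402, over 75, 87 and 88 cells that share pool and depth range.

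Cells with a main hormone were also ordered by Gcg level. Among them the share with a Ucn3 read at equal depth was 4.29% in 46 cells below 100 CPM of Gcg, 22.3% in 55 cells from 100 to 1000, 36.4% in 34 cells from 1000 to 10000 and 26.8% in 58 cells above. The share was thus lowest in the cells with least Gcg and did not go on growing with it. Over all pools the summed level ran otherwise, at 71.7, 84.4, 49.4 and 33.3 CPM from the lowest to the highest Gcg group. The deep pool had 81.1, 86.5, 50 and 33.5 CPM, and its leading Ucn3 cell (1499 CPM) lay in the lowest group. There SLX-11175 had 0 CPM and SLX-11179 had 2.53 CPM, each the lowest level of that pool. By Cck level, none of 24 cells with a main hormone and under 1000 CPM of Cck had a Ucn3 read, although only 3 of them were in the deep pool.

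Cells with the highest Ucn3 were not of 1 kind. The leading Ucn3 cell, at 1499 CPM, was a Cck-main cell of SLX-9703 with 83.9 CPM of Gcg, 337 CPM of Tph1, the enzyme that starts serotonin synthesis, and 1154 CPM of Pzp, a protease inhibitor. The next, at 711 CPM, had 49747 CPM of Ghrl and no Tph1 read. The cell after it, at 489 CPM, had 44884 CPM of Nts and 185539 CPM of Sct, which encodes secretin. All 3 were Cck-main.

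**Figure D2:**
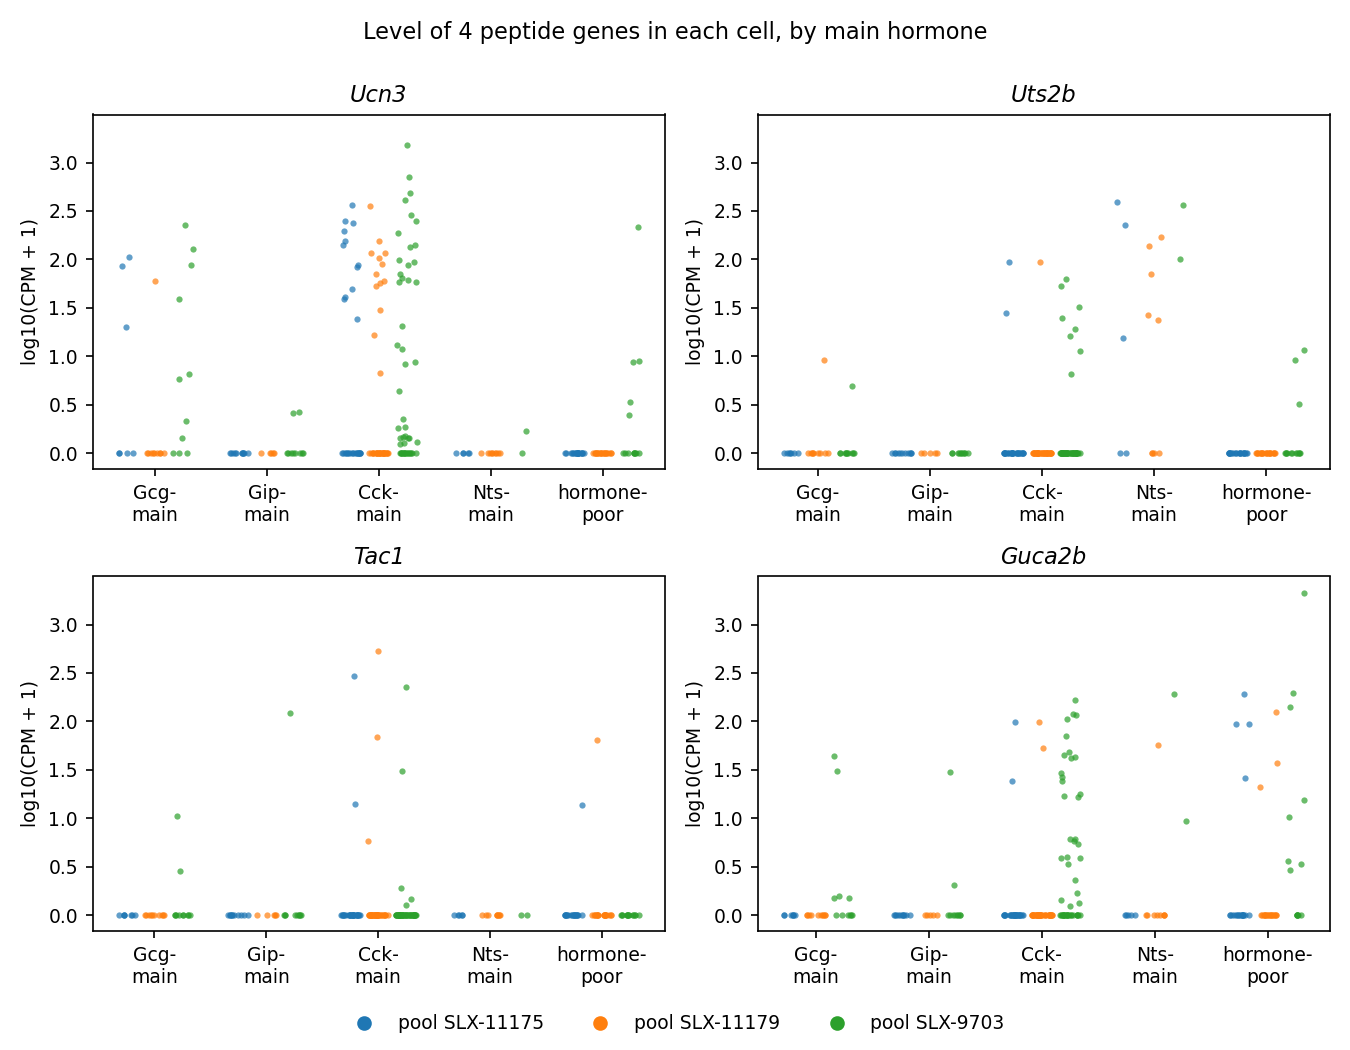
Level of Ucn3, Uts2b, Tac1 and Guca2b in each cell as log10(CPM + 1), by main hormone of the cell, with each point a cell coloured by pool. Ucn3 lies mostly in Cck-main and Gcg-main cells, reaching 1499 CPM, while the 5 highest Uts2b cells are all Nts-main, the highest at 392 CPM.

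Uts2b encodes the urotensin II-related peptide, a short cyclic peptide that shares the receptor Uts2r with urotensin II and is known as a constrictor of vessels. Its level was highest in Nts-main cells in all 3 pools. There it was 137 CPM in SLX-11175 (5 cells), 44.6 CPM in SLX-11179 (9 cells) and 240 CPM in SLX-9703 (2 cells). Cck-main cells had 4.32, 3.10 and 3.71 CPM. The classes did not overlap, and the Nts-main level was 31.6, 14.4 and 64.6 times the Cck-main level.

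Gip-main cells had no Uts2b read in any pool (0 of 26, a count that allows up to 11.5%). Relative to a limit of 3 reads per class, Nts-main cells were at least 25.7-fold, 8.30-fold and 1098-fold higher than Gip-main cells in SLX-11175, SLX-11179 and SLX-9703. Gcg-main cells had no read, 1 read and 0.289 CPM in these pools, and hormone-poor cells no read, no read and 1.00 CPM.

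Of the 16 Nts-main cells, 10 had a Uts2b read (62.5%, interval 35.4 to 84.8%), made up of 3 of 5, 5 of 9 and 2 of 2 cells. At equal depth the expected share was 48.2%. Among Cck-main cells 11 of 123 had a read (8.94%, interval 4.55 to 15.4%). Intervals are over cells, which do not replicate the classes. By main hormone, the 26 carriers were 11 Cck-main (42.3%, against 49.2% of all cells), 10 Nts-main (38.5% against 6.4%), 3 hormone-poor and 2 Gcg-main cells, and the 5 carriers at 100 CPM or more were all Nts-main. The Nts-main share of carriers was 60%, 71.4% and 14.3% in SLX-11175, SLX-11179 and SLX-9703, against 6.67%, 10.3% and 2.27% of all cells.

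The 5 Nts-main cells of SLX-11175 had 392, 228, 14.6, 0 and 0 CPM of Uts2b. The 9 of SLX-11179 ran from 0 to 170 CPM with a median of 22.8 CPM, and 4 of them had no read. In SLX-9703 both Nts-main cells carried it, at 367 and 99.4 CPM. Neurotensin as main hormone thus came with Uts2b in most but not all of these cells.

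In the Nts-main comparison 0.318% of 12568 genes were called by edgeR, and of the 4 peptide genes Uts2b was called. The fitted log2 fold change was 8.69 (SE 1.28, adjusted p = 0.00914, edgeR's quasi-likelihood test), from the 2 shallow pools, because the 2 Nts-main cells of SLX-9703 were too few for a sum. With these 2 cells added as a sum the value was 9.78, and the test was passed under 9 of 10 alternatives. The exception was a minimum of 1000 CPM for the main hormone, where the adjusted p by edgeR was 0.0642. As Gip-main sums were at 0 in both pools and the Gcg-main sum in one of them, the fitted size depends on the prior count and the ratios above give the measured difference.

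For Gip-main cells 0.557% of 12568 genes were called by edgeR and none of the 4 peptide genes, with 1, Uts2b, at an unadjusted p under 0.05. Its fitted log2 fold change was -9.28 (SE 2.51, adjusted p = 0.12 by edgeR), again against a class at 0. DESeq2, with 544 of 12568 genes called, and limma, with 1930 called, each called Ucn3 and Uts2b lower in Gip-main cells. None of these tools called Tac1 or Guca2b there.

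**Figure D3:**
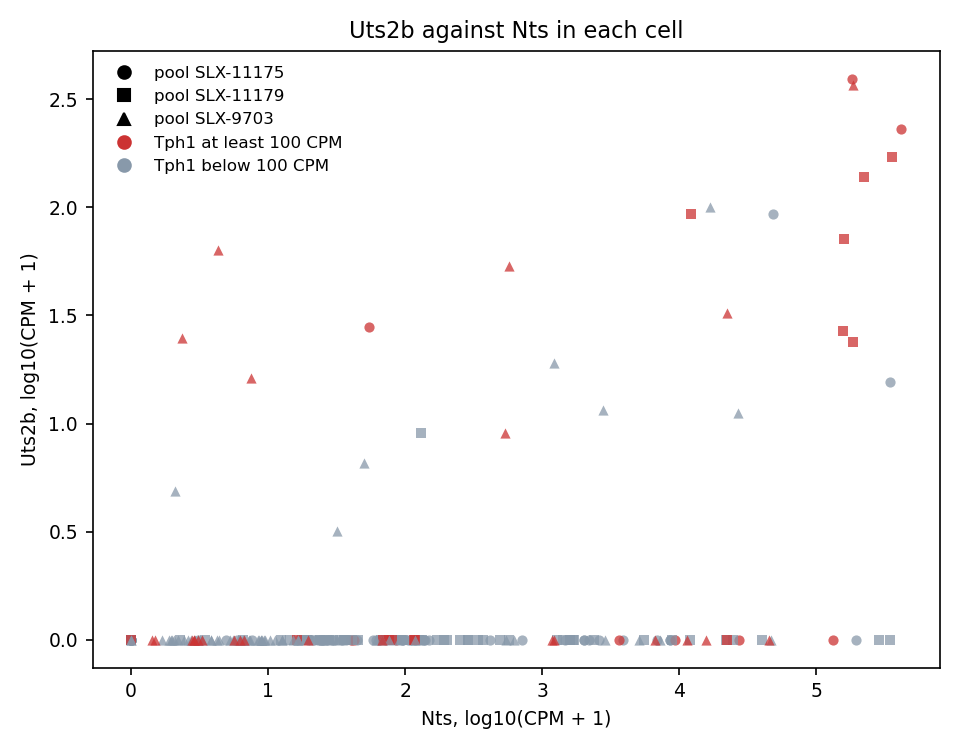
Uts2b against Nts in each of the 250 cells, both as log10(CPM + 1), with the pool shown by the marker and cells with Tph1 of 100 CPM or more in red. Of 28 cells at 10000 CPM of Nts or more 14 carry Uts2b, against 12 of 222 below, and the 5 highest cells are all red.

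The relation to Nts also showed when cells were taken by Nts level alone. Of 28 cells with Nts at 10000 CPM or more, 14 had a Uts2b read (50%), in 4 of 7, 6 of 13 and 4 of 8 cells of SLX-11175, SLX-11179 and SLX-9703. Of the 222 cells below this level 12 had one (5.41%). The 28 cells held 69% of all Uts2b reads. Of the 28, 12 were Cck-main, and 4 of these carried Uts2b. Across cells, the correlation of log2(CPM + 1) of Uts2b with Nts was 0.479, 0.541 and 0.412 in SLX-11175, SLX-11179 and SLX-9703 over 75, 87 and 88 cells, which share a pool, and with most cells at 0 for Uts2b.

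Of the 26 Uts2b carriers 24 had a Tph1 read and 16 had Tph1 at 100 CPM or more. Among Nts-main cells 8 of 9 with Tph1 at 100 CPM or more had a Uts2b read (88.9%), against 2 of 7 below (28.6%). The corresponding shares among Cck-main cells were 7 of 38 (18.4%) and 4 of 85 (4.71%), from pools of unlike depth, and within SLX-9703 they were 5 of 23 (21.7%) and 3 of 28 (10.7%). Both classes had the larger share on the Tph1-high side. Median Gcg was lower in Uts2b carriers than in other cells with a main hormone in each pool, at 53.6 against 2190 CPM in SLX-11175, 42.8 against 547 in SLX-11179 and 207 against 1097 in SLX-9703, the reverse of the order in Ucn3 carriers. The 5 cells at 100 CPM of Uts2b or more all had 147 to 546 CPM of Tph1, 78.6 to 1096 CPM of Cck and no Pzp read. This did not hold for all carriers with a main hormone. Their median Pzp was 92.2, 0 and 777 CPM in SLX-11175, SLX-11179 and SLX-9703, against 0, 0 and 1.28 CPM in other such cells. Median Cck was 10906, 338 and 127603 CPM in these carriers, against 127747, 100788 and 132351 CPM.

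Summed over cells with a main hormone, Uts2b was 81.2 CPM in Tph1-high and 2.94 CPM in Tph1-low cells of SLX-11175, a ratio of 27.6. It was 44.3 CPM against 1 read in SLX-11179, and 17.1 against 1.94 CPM in SLX-9703, a ratio of 8.83. The groups did not overlap. In this comparison 0.47% of 11056 genes were called by edgeR and none of the 4 peptide genes, with 1, Uts2b, at an unadjusted p under 0.05. Its log2 fold change was 4.46 (SE 0.81, adjusted p = 0.0737, edgeR's quasi-likelihood test). DESeq2 and limma both called it (adjusted p = 3.70e-08 and 0.00569), with 228 and 275 of 11056 genes called. It passed under 6 of 12 alternatives in all, among them those without SLX-11179 (adjusted p by edgeR = 5.03e-04) and without SLX-9703 (0.0140), but not without SLX-11175 (0.172) or without the highest cell (0.116). With Tph1-high set from 500 CPM the log2 fold change of Uts2b by edgeR was 1.99, and it did not pass. Nts-main cells were 9 of the 47 Tph1-high and 7 of the 146 Tph1-low cells, and their part in this difference was not tested.

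Ucn3, Tac1 and Guca2b were not called in the Tph1 comparison. Tph1-high minus Tph1-low, the log2 fold change by edgeR was -0.83 for Ucn3 (SE 0.80, adjusted p = 0.909), -1.98 for Tac1 (SE 1.71, adjusted p = 0.895) and 0.57 for Guca2b (SE 0.99, adjusted p = 0.955). With standard errors of this size, differences of several fold could go undetected. For Ucn3, 28.6%, 0% and 52.2% of Tph1-high Cck-main cells had a read in SLX-11175, SLX-11179 and SLX-9703, against 41.7%, 39.4% and 78.6% of Tph1-low ones, while the summed level was 63.3, 0 and 69.1 against 41.2, 29.1 and 74.4 CPM.

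**Figure D4:**
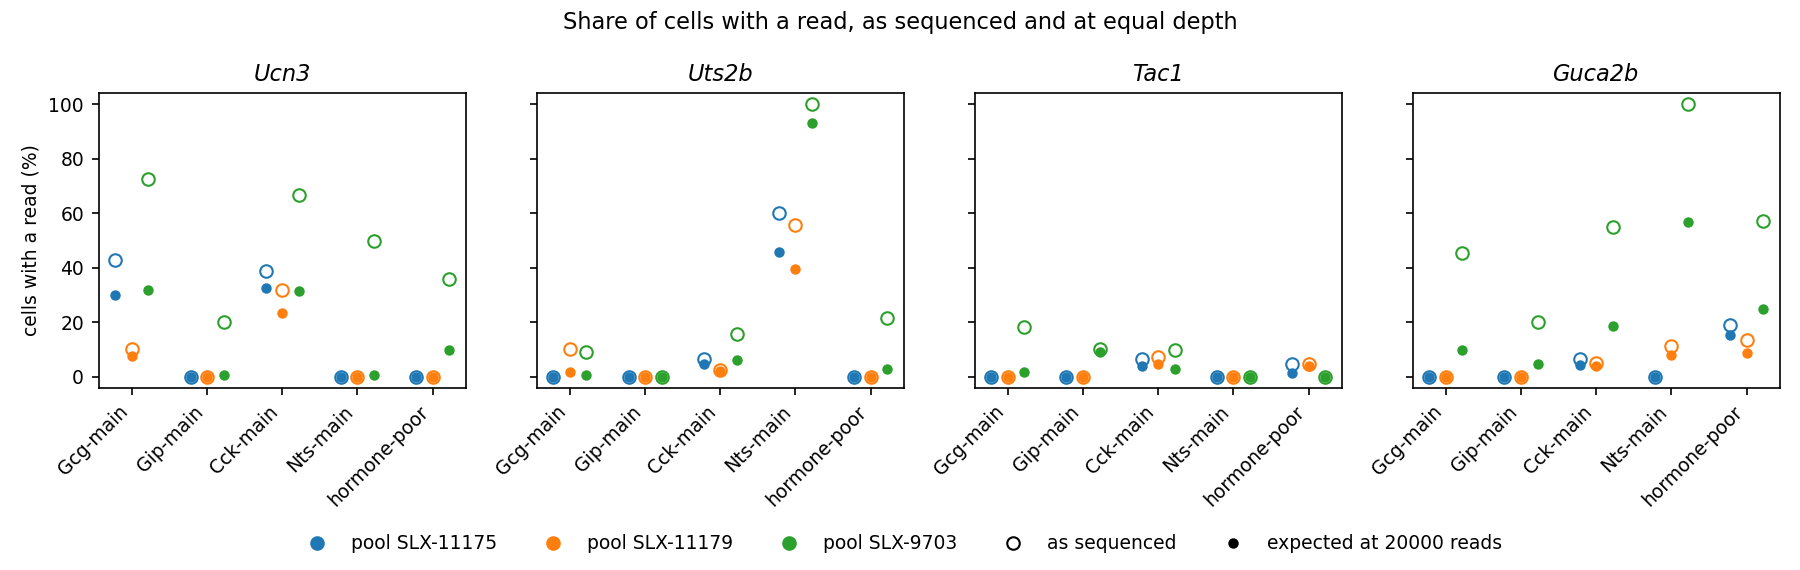
Share of cells with a read of each peptide gene in percent, by main hormone and pool, as sequenced (open points) and computed for 20000 reads per cell (filled points). For Ucn3 in Cck-main cells the open point of SLX-9703 lies at 66.7%, and at equal depth Ucn3 in Cck-main cells is at 32.5%, 23.2% and 31.6%.

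Tac1 encodes the precursor of substance P and neurokinin A, tachykinins best known from enteric neurons and from serotonin-producing cells of the gut. It had reads in 3, 4 and 8 cells of SLX-11175, SLX-11179 and SLX-9703, and 5 of these 15 cells had a single read. Cck-main cells made up 10 of the 15 (66.7%, against 49.2% of all cells), with 2 Gcg-main, 1 Gip-main and 2 hormone-poor cells. No Nts-main cell had a Tac1 read (0 of 16, a count that allows up to 18.8%).

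In Cck-main cells the summed Tac1 level was 8.10, 14.4 and 4.62 CPM (9.03 ± 4.95, SD, n = 3 pools). Gip-main cells had no read in either shallow pool and 26.4 CPM in SLX-9703, all of it from 1 cell of 120 CPM with 534698 CPM of Gip. The other classes were at 1.24 CPM or below in every pool. Cck-main levels rested on single cells as well, which held 14 of 15, 38 of 51 and 452 of 524 reads, and without them the levels were 0.555, 3.74 and 0.646 CPM. No order of the classes is drawn from these levels.

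The Tac1 level was 527 CPM in the highest cell (38 reads, SLX-11179), 290 CPM in the next (14 reads, SLX-11175) and 227 CPM in the cell after that (452 reads, SLX-9703). These 3 were Cck-main. The first and last of them had 1317 and 1575 CPM of Pzp, and the other had none but 2674 CPM of Pyy, the gene of peptide YY. Over all Tac1 carriers with a main hormone, the median Pzp level was 428, 981 and 632 CPM in SLX-11175, SLX-11179 and SLX-9703, against 0, 0 and 1.28 CPM in other cells with a main hormone, from 2, 3 and 8 carriers. Ucn3 reads were present in 9 of the 15 Tac1 carriers (60%), against 31.6% of all cells, and 6 of the 9 were in the deep pool, where 56.8% of cells had Ucn3.

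Guca2b encodes uroguanylin, which the epithelium secretes into the gut lumen to activate guanylate cyclase C (Gucy2c) and so drive salt and water secretion. Its carriers were spread over all classes. Of the 57, 32 were Cck-main (56.1%, against 49.2% of all cells), 15 hormone-poor (26.3% against 22.8%), 5 Gcg-main, 3 Nts-main and 2 Gip-main. SLX-9703 held 45 of the carriers, and 17.8% of these were hormone-poor (against 15.9% of its cells). A single read was all that 10 of these 45 cells had. The hormone-poor share was 66.7% of 6 carriers in SLX-11175 (against 28%) and 50% of 6 in SLX-11179 (against 25.3%). Of the 10 cells at 100 CPM or more, 5 were hormone-poor, 4 Cck-main and 1 Nts-main.

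The summed Guca2b level in hormone-poor cells was 12.7, 3.78 and 200 CPM in SLX-11175, SLX-11179 and SLX-9703. Over all cells with a main hormone it was 2.07, 4.48 and 13.6 CPM. Hormone-poor cells were thus 6.12 and 14.7 times higher in SLX-11175 and SLX-9703, but at 0.843 times the level in SLX-11179. A single cell held 2506 of the 3202 reads of the class in SLX-9703, and without it the level was 46.9 CPM and the ratio 3.46. The pools did not agree on the order of these summed levels. Averaged per cell, the level was higher in hormone-poor cells in each pool. It was 19.2 against 2.24 CPM in SLX-11175, 8.23 against 3.16 in SLX-11179 and 178 against 16.3 in SLX-9703. These means rest on 4, 3 and 8 hormone-poor carriers. In both shallow pools all 7 hormone-poor carriers were among the 25 cells numbered 81 or above, with 42 reads, and the 18 hormone-poor cells with lower numbers had no Guca2b read.

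In the comparison of hormone-poor cells with the mean of the hormone classes 8.81% of 12568 genes were called by edgeR, and of the 4 peptide genes Guca2b was called. The log2 fold change was 4.13 (SE 0.81, adjusted p = 0.00373, edgeR's quasi-likelihood test), on a scale normalised for composition and against a mean of classes of which Gcg-main and Gip-main were at 0 in both shallow pools. The median over all genes in the same comparison was 0.30. Without the highest cell the log2 fold change was 3.50 (adjusted p = 0.0404 by edgeR). Without SLX-11175 it was 3.55, and the call was lost (adjusted p = 0.0549 by edgeR). Without SLX-9703 the gene did not pass the filter on low counts.

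By edgeR the other members gave no call in this comparison. Ucn3 had a log2 fold change of 0.62 (SE 1.95, adjusted p = 0.914 by edgeR), which reversed in 8 of 12 alternatives, Uts2b -0.85 (SE 6.72, adjusted p = 0.98) and Tac1 0.31 (SE 2.06, adjusted p = 0.973). By limma on the mean per cell Uts2b was lower in hormone-poor cells (adjusted p = 0.0250), where limma called 2578 of 12568 genes. The contrast weighs each hormone class equally, so that the classes without Ucn3 count as much as Cck-main, where its measured level was higher than in hormone-poor cells in every pool.

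**Figure D5:**
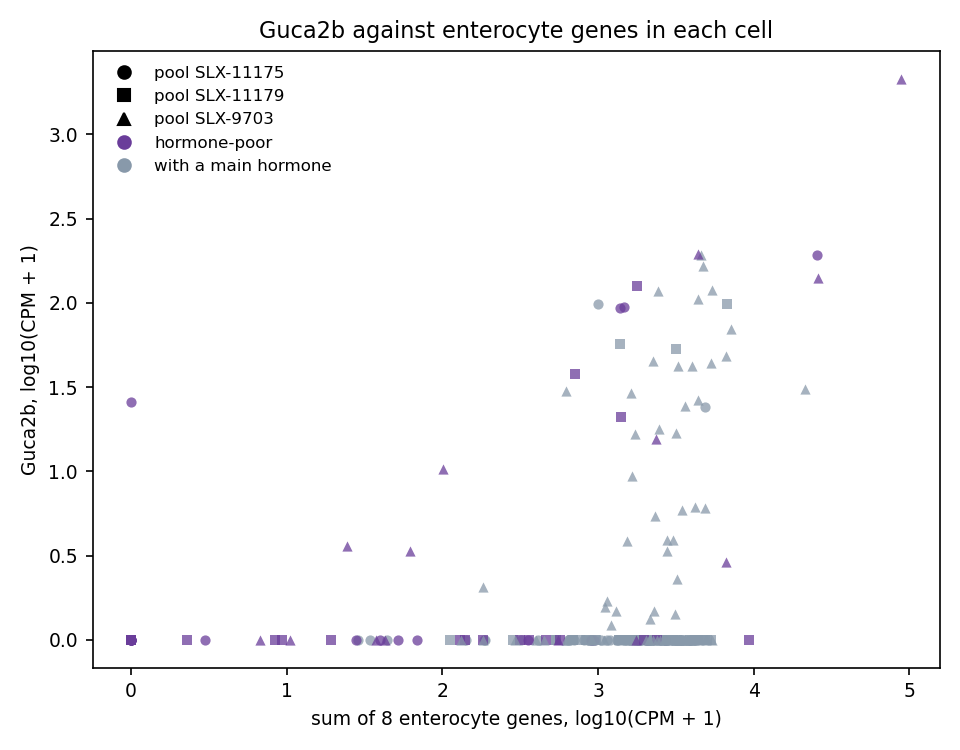
Guca2b against the sum of 8 enterocyte genes in each of the 250 cells, both as log10(CPM + 1), with the pool shown by the marker and hormone-poor cells in purple. The cell with most Guca2b, 2133 CPM, lies far to the right at 88611 CPM of enterocyte genes.

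Over all cells the correlation of Guca2b with the sum of 8 enterocyte genes was 0.107, 0.113 and 0.412 on the log scale, and in SLX-11179 the carriers had the lower median sum (1582 against 1813 CPM). In hormone-poor cells the median sum of 8 enterocyte genes was 1419 CPM in Guca2b carriers against 27 CPM in other cells of SLX-11175, 1393 against 129 in SLX-11179 and 3375 against 38.9 in SLX-9703. The correlation of the logarithms was 0.446, 0.375 and 0.762 over 21, 22 and 14 cells of 1 pool each. Among cells with a main hormone the medians were 2924 against 1661, 3146 against 2002 and 3005 against 2506 CPM, and the correlation was 0.0748, 0.162 and 0.378 over 54, 65 and 74 cells. The hormone-poor cell of SLX-9703 with most Guca2b held 47.3% of the reads of its pool, with 8624 CPM of Cck, 64467 CPM of Fabp2 and 13831 CPM of Fabp1, fatty acid binding proteins of absorptive cells. The part of enterocyte RNA in the Guca2b values was not tested.

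Genes whose pattern was most like Guca2b over the 88 cells of SLX-9703 were Spink1 (r = 0.721), Apoa1 (0.706), Fabp1 (0.645), Apoa4 (0.635) and 2010106E10Rik (0.632), among 13235 genes with a read in at least 20% of the cells. For Apoa1, the apolipoprotein of absorptive cells, r was 0.457 in SLX-11175 and 0.604 in SLX-11179, and for Spink1 it was 0.333 and 0.494, whereas 2010106E10Rik was at -0.029 in SLX-11179. No gene reached such values for Ucn3, where the highest was 1500009L16Rik at 0.446, followed by Col8a1 at 0.431, and both were weaker in the shallow pools. Uts2b and Tac1 had reads in too few cells for this comparison.

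As sequenced, 51.1% of cells had a Guca2b read in SLX-9703, against 8% in SLX-11175 and 6.90% in SLX-11179. At equal depth the expected shares were 17.7%, 6.08% and 4.93%. The gap between pools was smaller at equal depth but remained. Within hormone-poor cells the expected shares were 24.9% in SLX-9703, 15.4% in SLX-11175 and 8.73% in SLX-11179, and within cells with a main hormone 16.3%, 2.46% and 3.65%.

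Sst, the somatostatin gene that defines D cells, had no read in any of the 288 sequenced cells. Among the 250 cells kept a count of 0 allows up to 1.2%. Hhex, a transcription factor of D cells, was also at 0 in every class, and Rbp4 was the only gene of the D-cell list with reads. Somatostatin receptors were read nonetheless, Sstr5 in 142 cells and Sstr1 in 76.

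Insl5, a relaxin-family hormone known from L-cells of the colon, had reads in 4 cells of SLX-11179, 5 of SLX-9703 and none of SLX-11175. In 8 of the 9 cells it was a single read. The exception was a Cck-main cell of SLX-9703 with 44 reads (15.4 CPM) and 161570 CPM of Gcg. Iapp, which encodes amylin, the peptide released with insulin from beta cells, had 70 reads in 4 cells. Of these 65 lay in 1 Gcg-main cell of SLX-9703 (31.4 CPM), and 2 of the other 3 cells were Gip-main.

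Ucn3 and Uts2b shared 5 cells, all in SLX-9703, which are 6.33% of Ucn3 carriers and 19.2% of Uts2b carriers. Over all cells 10.4% had Uts2b and 31.6% had Ucn3. Within SLX-9703 the overlap was 10% of Ucn3 carriers (15.9% of its cells had Uts2b) and 35.7% of Uts2b carriers (56.8% had Ucn3). Ucn3 and Guca2b shared 30 cells (38% and 52.6% of their carriers), 28 of them in SLX-9703. Guca2b was read in 22.8% of all cells. In SLX-9703 56% of Ucn3 carriers had Guca2b, against 51.1% of its cells, and 62.2% of Guca2b carriers had Ucn3, against 56.8%. Besides the 9 Tac1 carriers with Ucn3, 6 of the 15 carried Guca2b (40%, against 22.8% of all cells) and 2 carried Uts2b (13.3% against 10.4%). Of the 9 Insl5 carriers, 3 had Ucn3 (33.3% against 31.6%). The part of depth in these overlaps was not tested.

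A list of 52 other peptide genes held relatives of the members and further peptide precursors such as Nucb2 and Vgf. Of these 9 passed the filter in the hormone comparisons and 5 in the Tph1 comparison. Ucn had a read in 1 cell, Ucn2 in 2, Crh in 9, Guca2a in 3 and Uts2 in none, whereas Insl6, Nucb2 and Vgf were read in 81, 79 and 73 cells. By edgeR 1 of the 9 was called in any comparison, Nucb2, the precursor of nesfatin-1, which was lower in hormone-poor cells, where 8.81% of all genes were called (log2 fold change -9.25, SE 1.71, adjusted p = 0.00246). Its level there was 0, 0 and 0.0625 CPM, against 29.2, 17.8 and 36.4 CPM in Cck-main cells.

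Counts of these peptides at an unadjusted p under 0.05 by edgeR were 2, 2, 0, 1, 2 and 0 in the Gcg-main, Gip-main, Cck-main, Nts-main, hormone-poor and Tph1-high comparisons. Over all genes tested the shares at this p were 8.73%, 12.5%, 6.10%, 8.98%, 22.3% and 7.10%. DESeq2 called Vgf lower in Gip-main cells (544 of 12568 genes called) and Adm higher in hormone-poor ones (1871 called) besides Nucb2. By limma Insl6 and Vgf were lower in Gip-main cells (1930 called), Vgf was higher in Nts-main cells (465 called) and Nucb2 was lower in hormone-poor cells (2578 called). The median log2 fold change of the list was 0.75, -1.33, 1.62, -0.08, -1.14 and -0.48 in the same order, beside 0.10, -0.02, 0.30, -0.14, 0.30 and -0.12 over all genes tested.

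Of 19 receptor genes of the members 6 were tested. Uts2r and Crhr1 had no read in any cell, Crhr2 was read in 5 cells, Tacr1 in 2, Tacr2 in 1, Tacr3 in 3, Rxfp4 in 2 and Calcr in 2. Gucy2c, the receptor of uroguanylin, was read in 202 cells (80.8%), and the somatostatin receptors Sstr5, Sstr1 and Sstr2 in 142, 76 and 42 cells.

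Gucy2c, Sstr5 and Sstr2 were the receptors called by edgeR, 2 of 6 in hormone-poor cells, where 8.81% of all genes were called, and 1 of 6 in Tph1-high cells, where 0.47% were. Gucy2c was lower in hormone-poor cells (log2 fold change -2.31, SE 0.47, adjusted p = 0.00514), at 4.75, 30.6 and 75.8 CPM against 193, 202 and 274 CPM in Cck-main cells. Sstr5 was lower there too (-2.90, SE 0.73, adjusted p = 0.0195), at 0.791, 4.53 and 12.6 against 82.1, 83.4 and 118 CPM. Sstr2 was higher in Tph1-high cells (3.72, SE 0.45, adjusted p = 0.0113), at 123, 26.6 and 86.6 CPM against 7.72, 3.63 and 3.67 CPM in Tph1-low cells. In the Gcg-main, Gip-main, Cck-main and Nts-main comparisons edgeR called no receptor, with 2, 2, 1 and 3 at an unadjusted p under 0.05 (3 in hormone-poor and 2 in Tph1-high cells), beside the shares over all genes given above. DESeq2 called Sstr1 higher in Nts-main cells (139 of 12568 genes called) and lower in hormone-poor cells (1871 called). By limma Sstr1 was lower in Gcg-main cells (304 of 12568 genes called), and Gucy2c, Ramp2, Sstr1 and Sstr5 were lower in Gip-main cells (1930 called). Sstr1 and Sstr2 were higher by limma in Nts-main cells (465 called), and Sstr1 was lower in hormone-poor cells (2578 called). The receptor medians were -0.35, -1.20, 0.91, 1.58, -2.78 and -0.14 on the log2 scale in the order given above for the peptide list.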

How the data were processed

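The authors deposited 1 table of raw counts per gene for all cells, made from Smart-seq2 libraries with GSNAP (2015-09-29) on mm10 and HTSeq (0.5.3p3), per the submitters' processing notes. Lines without a gene held 77.6% of counts (66.5% not aligned) and spike-ins 5.34%, and both stayed out of library sizes. Of 46078 mouse gene IDs 45229 matched a GENCODE M21 symbol. The 4 columns that match no sample were not used.

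Cells kept had at least 20000 gene reads and at most 20% mitochondrial reads. This left out 21, 9 and 8 cells of SLX-11175, SLX-11179 and SLX-9703, and the kept cells had 20121 to 4368674 reads. No doublet caller was run, so a cell with several hormones may be more than 1 cell. A cell counts as a carrier with at least 1 read. Tph1-high cells had a main hormone and at least 100 CPM of Tph1.

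Reads of the cells of a class were added up within each pool, where it held at least 3 cells, and these sums were tested in edgeR 4.0.16 (TMM, filterByExpr, quasi-likelihood, pool as a term, Benjamini-Hochberg 0.05) in R 4.3.3. An SE beside an edgeR value was derived from the test, as the absolute log2 fold change over the square root of the F value. Each hormone class was set against the mean of the other hormone classes, hormone-poor cells against the mean of the hormone classes, and Tph1-high against Tph1-low cells. Alternatives used DESeq2 1.42.0, limma 3.58.1 on log2(CPM + 1), other filters, minimums and thresholds, and left out each pool. Scripts (Python 3.11.15) were tested on simulated data. Folds against a class at 0 use 3 reads as the class sum.

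Pools were taken to pair the sums, on the assumption that each is 1 mouse. Deviations of sums of the same pool correlated at -0.00416 to 0.371 (median 0.0693 over 26 pairs), against a median of -0.0213 between pools.

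Fold changes of members are printed where the unadjusted p was under 0.05, and always for the hormone-poor and Tph1 comparisons. Genes most alike are the 5 with the highest Pearson r in SLX-9703, for members with a read in at least 20% of its cells. List genes are named where called. The members, lists and rules were chosen with earlier results of these data known. Further marker sums were at most 29.8 CPM in any class and pool for Paneth cells (5 genes), at most 17.9 for tuft cells (4 genes), 4941 to 7736 in Cck-main cells for goblet cells (5 genes) and 41.9, 570 and 1.69 in hormone-poor cells for stem cells (4 genes).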

Additional observations from a re-analysis of the deposited data

Results flagged for a closer look

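Guca2b also had reads in the cells left out for low depth or a high mitochondrial share, which no comparison used. A read was present in 10 of these 38 cells (26.3%), beside 22.8% of the cells kept, and 2760 Guca2b reads lay in them. They are given here because these cells hold reads and enter no comparison. The left-out cells with a read were 1 of 21 in SLX-11175, 3 of 9 in SLX-11179 and 6 of 8 in SLX-9703. In the same pools 8%, 6.90% and 51.1% of the cells kept had a read. Of the 10 left-out cells with a read, 9 were over the mitochondrial limit. Their Guca2b level was 126 CPM, 33.2 to 62.2 CPM and 1.25 to 580 CPM in these pools. The sum of 8 enterocyte genes in the same cells was 6689 CPM, 258 to 2424 CPM and 671 to 9681 CPM, and its part in the Guca2b values was not tested. Ucn3 and Tac1 each had reads in 3 of the cells left out (11 and 3 reads), and the other members in none.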

How the results depend on the processing

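Sums of at least 5 cells, and in the Tph1 comparison of at least 2, were the sums already reported and are not counted. Of 139 fold changes of members recomputed under the other alternatives, 97 kept their direction and their side of the threshold, 11 came to pass it, 10 no longer passed it and 21 reversed. Every reversal concerned a value that was not called. In hormone-poor cells Ucn3 turned to -0.90 with DESeq2, -3.71 to -0.95 with a pool left out, -0.83 with limma, -1.06 at the higher depth minimum (50000 reads, 750000 in SLX-9703), -4.54 with a main hormone from 1000 CPM and -0.50 with sums of at least 2 cells. Tac1 there turned to -0.48, -4.70 to -3.89, -0.052, -1.70 and -1.98 under the first 5 of these, and Uts2b to -4.27 to 2.04 with a pool left out. In Tph1-high cells Guca2b was -0.31 to 1.10 with a pool left out, -0.071 with a main hormone from 1000 CPM and -0.73 with Tph1 from 500 CPM, and Ucn3 was -1.68 to 0.010 with a pool left out.

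Counts of called genes (12, 70, 16, 40 and 1107 in Gcg-main, Gip-main, Cck-main, Nts-main and hormone-poor cells, 52 in Tph1-high cells) moved more than the calls of members. In that order DESeq2 gave 152, 544, 46, 139, 1871 and 228, no filter on low counts 82, 337, 112, 145, 1740 and 206, and limma with equal weight per cell 304, 1930, 56, 465, 2578 and 275. Leaving out a pool gave 0 to 10, 10 to 46, 5 to 12, 41 (Nts-main, without SLX-9703 only, since the contrast needs both shallow pools), 430 to 887 and 40 to 170, where 0 for Gcg-main without SLX-11179 came with 911 genes at an unadjusted p under 0.05. The higher depth minimum gave 5 for Gcg-main, 42 for Gip-main, 6 for Cck-main and 19 for Nts-main, a mitochondrial limit of 10% gave 44 for Gip-main, 10 for Cck-main, 24 for Nts-main and 729 for hormone-poor, and a main hormone from 1000 CPM gave 18 for Nts-main. Sums of at least 2 cells, added after seeing the data, gave 133 for Nts-main and 641 for hormone-poor.

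Without the replicate block of pool the Cck-main count was 10, Tac1 in hormone-poor cells was -0.20, and the adjusted p of Ucn3 in Cck-main cells by edgeR was 0.0917, which ends that call. Among the other fold changes of members printed by the rule above, no call changed without the block. The remaining member tests were not repeated without it. No paired analysis by cell number was possible because no label ties a cell number of a pool to that of another pool.

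Ucn3 in Cck-main cells passed under 4 of 12 alternatives (adjusted p by edgeR, DESeq2 or limma 1.19e-04 to 0.503), Uts2b in Nts-main cells under 9 of 10 (3.83e-07 to 0.0642), Guca2b in hormone-poor cells under 10 of 11 (1.21e-05 to 0.0549) and Uts2b in Tph1-high cells under 6 of 12 (3.70e-08 to 1), the causes of which were not tested. The Nts-main share of Uts2b carriers was 100% for carriers at 100 CPM and 26.3 to 66.7% with a pool left out (66.7% without SLX-9703), and the hormone-poor share of Guca2b carriers was 21.6 to 58.3% with a pool left out, the upper value without SLX-9703, and 14% with a main hormone from 1000 CPM. Low depth limits what the shallow pools can show, since a class sum of 3 reads there stands for up to 7.59 CPM.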
